A study of Mus musculus with 12 samples.

Results

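The genes described here are 33 genes of fatty acid oxidation and of the response to PPAR-alpha, the nuclear receptor encoded by Ppara, measured in mouse kidney. They were taken from a list of symbols naming genes of fatty acid uptake and of mitochondrial and peroxisomal oxidation, and all 33 were found among the 21899 genes of the deposited expression table. The rule used no expression value, but the list was drawn up with earlier results of these data known. All 33 passed the filter on low values (0.3 FPKM or more, in 3 or more libraries). FPKM counts fragments per unit of gene length and of library size, so that levels can be compared between genes.

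Kidney messenger RNA was sequenced in 4 groups of 3 libraries. Vehicle was given to db/m mice (db/m-veh), which are lean and carry a single mutated leptin receptor allele, and to db/db mice (db/db-veh), in which both alleles are mutated and obesity and diabetes follow; the labels call the latter a diabetic nephropathy group. In the db/m-GABP-OE group GABP, an ETS family transcription factor, was overexpressed in db/m mice, and in the db/db-GABP-KD group it was knocked down in db/db mice. Per the labels, 6 kidneys were chosen per group and 3 tissues were mixed for extraction. How GABP was raised or lowered, in which kidney cells, whether the 2 GABP groups also had vehicle, and age and sex are not stated. It is unknown, too, if each library came from its own pool of mice, so p-values measure only the spread between these libraries, which may be technical.

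PPAR-alpha pairs with the receptor RXR, is switched on by fatty acids and raises the genes that burn them, above all in fasting. In the kidney the proximal tubule burns fatty acids as its main fuel, and the receptor and many of its targets are made there. Long-chain fatty acids enter mitochondria as carnitine esters and are shortened by beta-oxidation, very long chains are first shortened in peroxisomes, and microsomal cytochrome P450 enzymes of the CYP4 family oxidise the far end of the chain.

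Libraries held 6.78 to 9.70 M fragments (M, 1e6), of which the 13 mitochondrially encoded messenger RNAs took 47.9% to 85.9%, so that 1.08 to 4.40 M fragments were left for all other genes. Because FPKM divides by the total, a library with more mitochondrial RNA shows lower FPKM for other genes. The log2 fold changes are therefore given as deposited and, for the members described in full, also after median of ratios scaling, which sets the typical gene among 5884 equal across libraries. Over the 12897 genes tested, the median log2 fold change as deposited was -0.24 in db/db-veh, 0.38 in GABP-OE and 0.42 in GABP-KD, and 0.01, 0.04 and 0.00 after scaling. A member's fold change as deposited is to be read against that shift. The proximal tubule genes Lrp2 (6.39 to 22.4 FPKM) and Slc34a1 (133.5 to 697.8 FPKM) were present in all 12 libraries. Gabpa, which encodes the DNA-binding subunit of GABP, was at 1.79, 2.32 and 2.54 FPKM in db/m-veh, 2.20, 2.17 and 1.63 FPKM in db/db-veh, 3.45, 3.35 and 3.71 FPKM in GABP-OE and 6.62, 2.66 and 3.401 FPKM in GABP-KD. Its RNA was thus higher, not lower, in all 3 libraries labelled as knockdown as deposited (limma log2 fold change 0.84, SE 0.33, adjusted p = 0.345), and these overlapped db/db-veh after scaling (0.31, adjusted p = 0.896). For GABP-OE it was 0.57 (adjusted p = 0.435) and 0.19 (adjusted p = 0.999), and protein was not measured, so GABP-OE and GABP-KD are used below as the names the labels give. The kidney was sequenced whole, so fewer cells of a type and less RNA per cell cannot be told apart.

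Within the group labelled GABP-KD, library db/db-GABP-KD 1 differed widely from the other 2 and bears on every GABP-KD result. In scaled values, 17 of the 33 members were at least 2-fold higher there than the mean of db/db-GABP-KD 2 and 3, against 7.71% of all genes tested. At least 2-fold lower was 1 member, Etfb, against 11.96% of all genes tested. Pdk4 and Plin2 had the largest and the second largest excess of all 12897 genes. This library also had the lowest mitochondrial share, 47.9% against 75.5% and 74.1%. In db/db-veh 3, 12 of the 33 members were at least 2-fold higher than the mean of db/db-veh 1 and 2, against 5.25% of all genes. For the members described in full, fold changes that either library moved widely are also given without it.

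**Figure D1:**
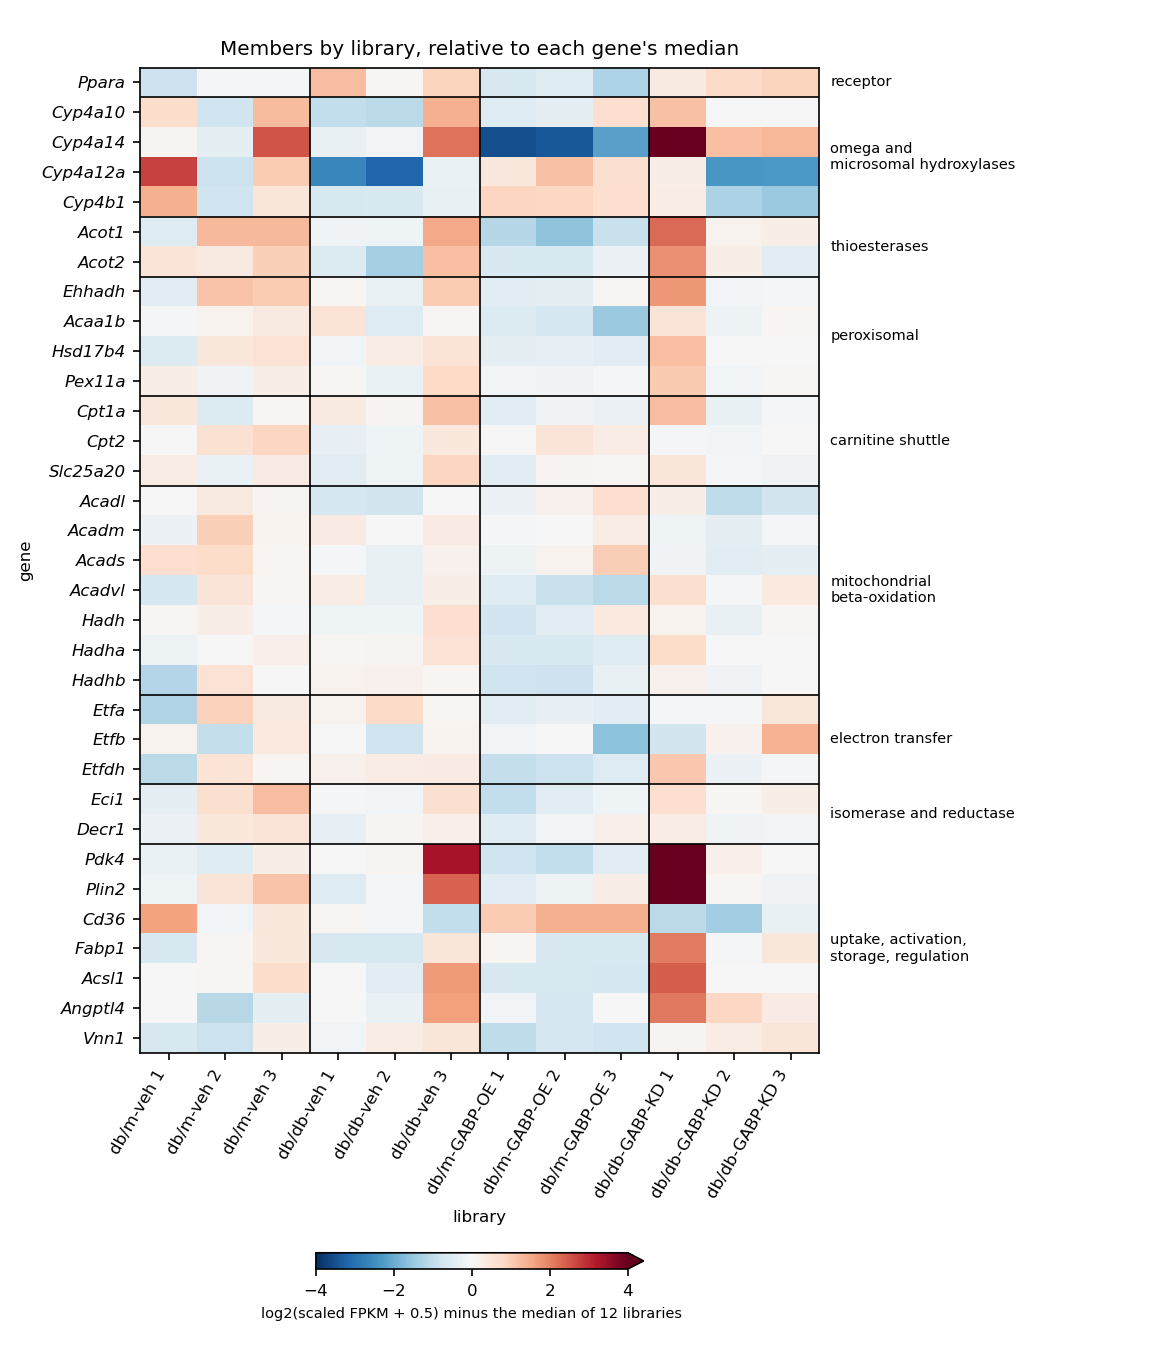
Log2(scaled FPKM + 0.5) of the 33 members (vertical axis, by role) in the 12 libraries (horizontal axis), each minus that gene's median over the 12. Red is above and blue below the median. The columns db/db-GABP-KD 1 and db/db-veh 3 are red for many members, and Cyp4a14 is blue in all 3 db/m-GABP-OE libraries.

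No member passed the test in any comparison, with all 12 libraries in the limma fit and Benjamini-Hochberg adjustment over all genes tested. The counts were 0 of 33 members for db/db-veh compared with db/m-veh, where 0.093% of all genes passed, 0 of 33 for GABP-OE, where 1.9% passed, and 0 of 33 for the group labelled GABP-KD, where 0% passed. For the difference between the GABP-OE and GABP-KD effects (the former minus the latter) it was 0 of 33, with 0.132% of all genes passing. After scaling the member counts were again 0, with 0.171%, 0.209%, 0.0388% and 0.0775% of all genes passing, in the same order. A second tool, limma's voom on the recovered fragments, also called 0 members in each comparison. With limma's library weights, which lower the say of libraries far from their group, 1 member passed for db/db-veh (Cyp4a12a, lower), 4 for GABP-OE (Cyp4a14, Acot1 and Eci1 lower, Cd36 higher), 0 for GABP-KD and 1 for the difference (Cyp4a14), beside 4.98%, 21.4%, 1.23% and 2.92% of all genes.

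At an unadjusted p under 0.05, limma on the deposited values gave 2 members for db/db-veh, 3 for GABP-OE, 2 for the group labelled GABP-KD and 2 for the difference, where 11.5%, 15.1%, 14.3% and 5.44% of all genes had such a p. After scaling the counts were 3, 5, 1 and 6, beside 12%, 7.53%, 6.48% and 6.87% of all genes. As deposited these were Cyp4a12a and Cd36 for db/db-veh, Cyp4a14, Acot1 and Cd36 for GABP-OE, Cyp4a14 and Fabp1 for GABP-KD, and Cyp4a14 and Acot1 for the difference.

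The direction of the members' fold changes, counted around 0, depended on the scaling. In db/db-veh 6 members were above 0 and 27 below as deposited, with a median of -0.36, and 15 and 18 after scaling, with a median of -0.06. Without db/db-veh 3 these became 2 and 31 with a median of -0.69, and 10 and 23 with a median of -0.33 after scaling. Against the all-gene median of db/db-veh over all 12 libraries, 11 were above and 22 below as deposited, and 15 and 18 after scaling. In GABP-OE 15 were above 0 and 18 below as deposited, with a median of -0.06 beside 0.38 for all genes. After scaling 4 were above 0 and 29 below, with a median of -0.44 beside 0.04. Against the all-gene median of GABP-OE, 4 were above and 29 below on both scales. In GABP-KD 32 were above 0 and 1 below as deposited, with a median of 0.68, and 20 and 13 after scaling, with a median of 0.10. Without db/db-GABP-KD 1 these became 21 above and 12 below with a median of 0.06, and 9 above and 24 below with a median of -0.22 after scaling. With all 12 libraries, 26 of 33 members lay above the all-gene median of the GABP-KD comparison as deposited and 20 after scaling. Without db/db-GABP-KD 1 these counts fell to 11 and 9. With that library kept and db/db-veh 3 left out they were 30 and 27.

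Few members had groups that did not overlap. In db/db-veh as deposited 0 members were higher in all 3 libraries, against 1.46% of all genes, and 2 were lower in all 3 (Acadl and Acads), against 14.4%. After scaling 1 was higher (Ppara), against 8.3%, and 1 lower (Acadl), against 9.03%. In GABP-OE as deposited 0 were higher in all 3 libraries, against 30.4%, and 4 were lower (Cyp4a14, Acot1, Acaa1b and Acsl1), against 0.923%. After scaling 0 were higher, against 9.72%, and 6 were lower, with Acot2 and Hadha joining those 4, against 4.7%. In GABP-KD as deposited 0 were higher, against 17.3%, and 0 lower, against 0.822%. After scaling 0 were higher, against 4.63%, and 1 was lower (Acadm), against 5.67%.

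**Figure D2:**
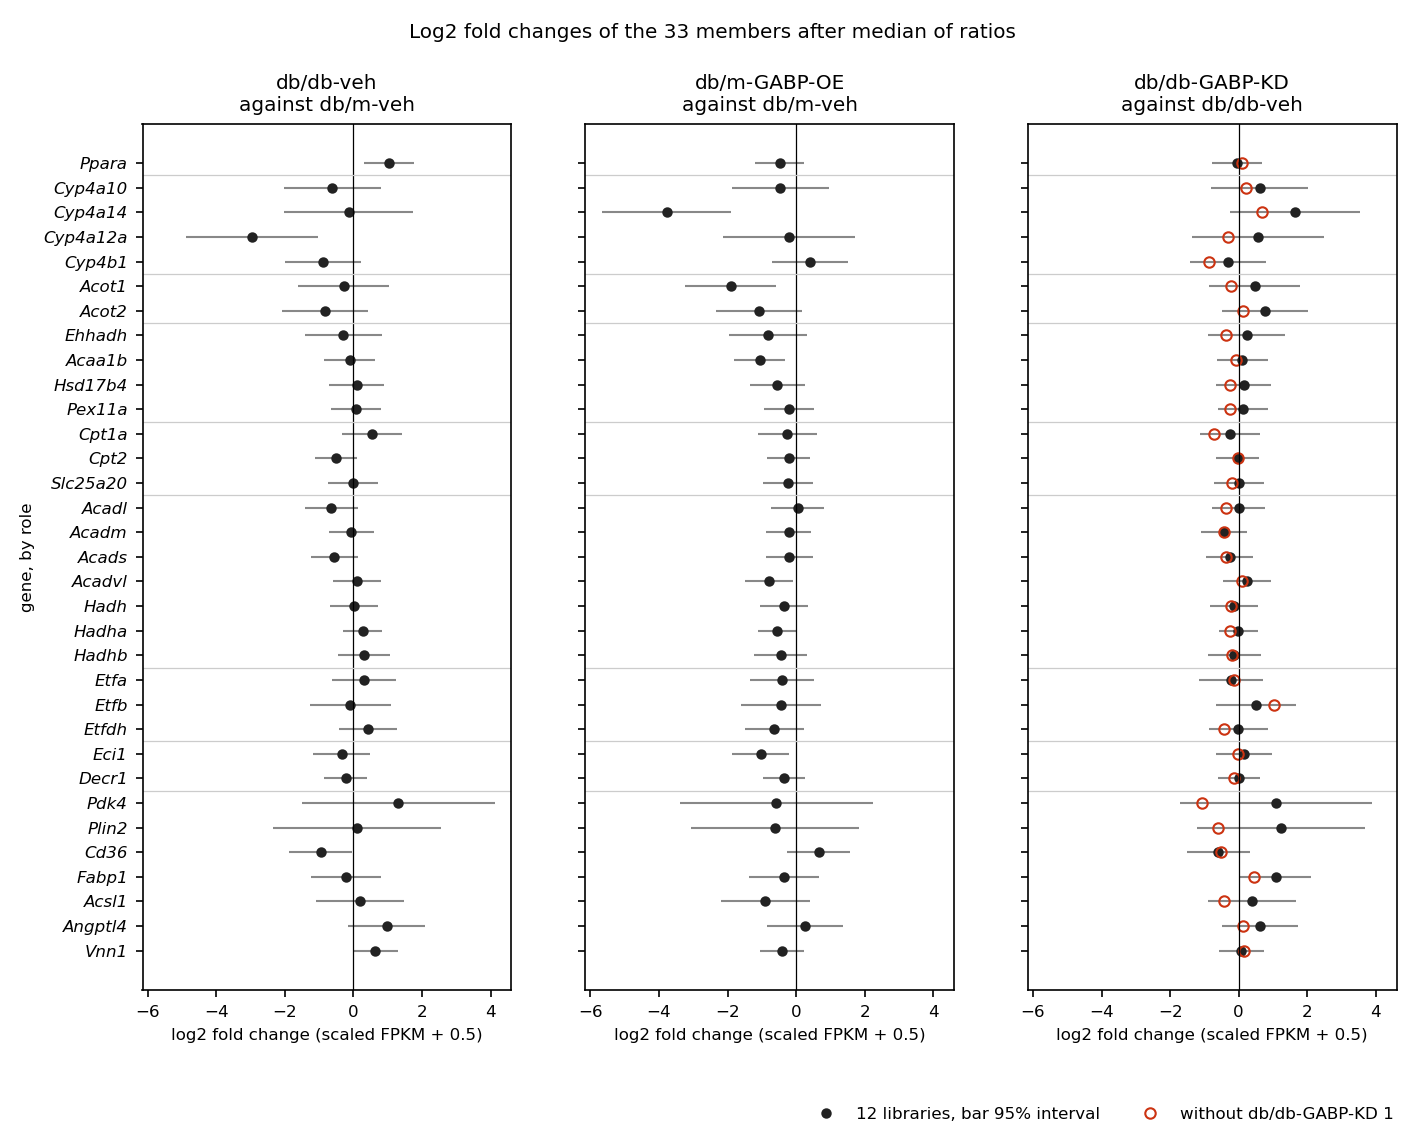
Log2 fold change on the log2(scaled FPKM + 0.5) scale (horizontal axis) of the 33 members (vertical axis, by role) in 3 comparisons. Points are fits over 12 libraries with bars for the 95% interval, and open circles are the GABP-KD comparison without db/db-GABP-KD 1. Cyp4a14 lies at -3.78 in GABP-OE and Cyp4a12a at -2.97 in db/db-veh, and most open circles lie left of the filled points.

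Ppara, the receptor itself (chromosome 15), was among the lowest members, with a median of 1.11 FPKM over the 12 libraries. It was at 0.456, 0.956 and 1.26 FPKM in db/m-veh and at 3.31, 0.677 and 2.14 FPKM in db/db-veh. In GABP-OE it was at 0.751, 0.940 and 0.303 FPKM, and in the group labelled GABP-KD at 2.93, 2.16 and 2.45 FPKM. The 2 db/db groups were thus mostly above the 2 db/m groups, with db/db-veh 2, the library with the highest mitochondrial share, as the exception. The log2 fold change for db/db-veh was 0.76 (SE 0.39, limma adjusted p = 0.478) as deposited, and 1.03 (SE 0.34, adjusted p = 0.242) after scaling, where the groups no longer overlapped. GABP-OE gave -0.25 and -0.48 and GABP-KD 0.40 and -0.05, as deposited and after scaling.

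The 4 hydroxylases lie near each other on chromosome 4 of GRCm38 and held the member with the largest log2 fold change for db/db-veh (Cyp4a12a) and for GABP-OE (Cyp4a14). They are Cyp4a12a (chr4:115299046-115332815), Cyp4a14 (chr4:115486200-115496142), Cyp4a10 (chr4:115518264-115533649) and Cyp4b1 (chr4:115624725-115647723). Cyp4a10 and Cyp4a14 make enzymes that hydroxylate fatty acids and are textbook targets of PPAR-alpha. Cyp4a12a makes the enzyme that turns arachidonic acid into 20-HETE in male mouse kidney, and Cyp4b1 encodes a related microsomal enzyme. Cyp4a10 has close copies in Cyp4a31 and Cyp4a32, and Cyp4a12a in Cyp4a12b, and counting could have split reads between such copies, so their levels are uncertain.

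Cyp4a14 was low in all 3 GABP-OE libraries. It was at 14.7, 8.80 and 89.8 FPKM in db/m-veh, and at 0.979, 1.15 and 3.58 FPKM in GABP-OE, which came from 23, 29 and 80 fragments. The groups did not overlap on either scale. The log2 fold change was -3.44 (SE 0.99, limma adjusted p = 0.0859) as deposited and -3.78 (SE 0.88, adjusted p = 0.125) after scaling, so the difference missed the threshold. The summed scaled FPKM of 16 proximal tubule genes was 13090 to 24880 in GABP-OE and 4436 to 18570 in db/m-veh. Without Kap, an androgen-regulated gene that gave most of that sum, it was 1423 to 1621 and 1074 to 3273. Library db/db-GABP-KD 1 is of neither group but feeds the shared estimate of spread. Without it the same GABP-OE fold changes had limma adjusted p = 0.0174 and 0.0368, with 4.33% and 0.597% of all genes passing. Across 37 alternative settings the GABP-OE fold change ranged from -4.77 to -2.47. Its limma adjusted p ranged from 4.9e-05 to 0.628, and it passed in 4 of these settings. In db/m-veh 3 Cyp4a14 was at 6.45 times the mean of the rest of its group after scaling. This was the largest excess there of all genes tested, so the db/m-veh mean leaned on that library. In db/db-veh Cyp4a14 was at 10.5, 6.94 and 52.7 FPKM, which overlapped db/m-veh. The log2 fold change for db/db-veh was -0.52 as deposited and -0.14 after scaling, and -1.37 and -0.94 without db/db-veh 3. In GABP-KD it was at 456.2, 29.5 and 33.1 FPKM, with a log2 fold change of 2.24 (SE 0.99, limma adjusted p = 0.344) as deposited and 1.65 (adjusted p = 0.813) after scaling. As deposited, without db/db-GABP-KD 1 that fold change was 0.96 (adjusted p = 0.762), and without db/db-veh 3 it was 3.09 (adjusted p = 0.364). For the GABP-OE effect less that of GABP-KD the value was -5.68 (SE 1.40, limma adjusted p = 0.226).

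For its neighbour Cyp4a10 the same groups overlapped. It was at 85.6, 25.3 and 142.1 FPKM in db/m-veh and at 46.7, 54.8 and 113.0 FPKM in GABP-OE. It was at 24.7, 13.2 and 115.8 FPKM in db/db-veh and at 206.9, 47.0 and 49.9 FPKM in the group labelled GABP-KD, so the highest values of both db/db groups came from db/db-veh 3 and db/db-GABP-KD 1. Its log2 fold changes as deposited were -0.99 in db/db-veh, -0.03 in GABP-OE and 1.21 in GABP-KD, with limma adjusted p = 0.676, 0.984 and 0.404. After scaling they were -0.62, -0.47 and 0.61. Without db/db-GABP-KD 1 the GABP-KD value was 0.51 as deposited and 0.22 after scaling, and without db/db-veh 3 the db/db-veh value was -1.88 and -1.43.

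The ratio of Cyp4a14 to Cyp4a10 within a library does not depend on library scaling. It was 0.172, 0.348 and 0.632 in db/m-veh and 0.0210, 0.0210 and 0.0317 in GABP-OE. The mean was 14.0-fold lower in GABP-OE on the log scale, with no overlap and an exact two-sided permutation p = 0.1, the smallest that 3 against 3 libraries can give. In db/db-veh the ratio was 0.427, 0.524 and 0.455, and in the group labelled GABP-KD 2.21, 0.629 and 0.663, again with no overlap and an exact permutation p = 0.1. This ratio and 3 others were chosen after the values were seen, over 12 comparisons in all, so these p-values support nothing by themselves.

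**Figure D3:**
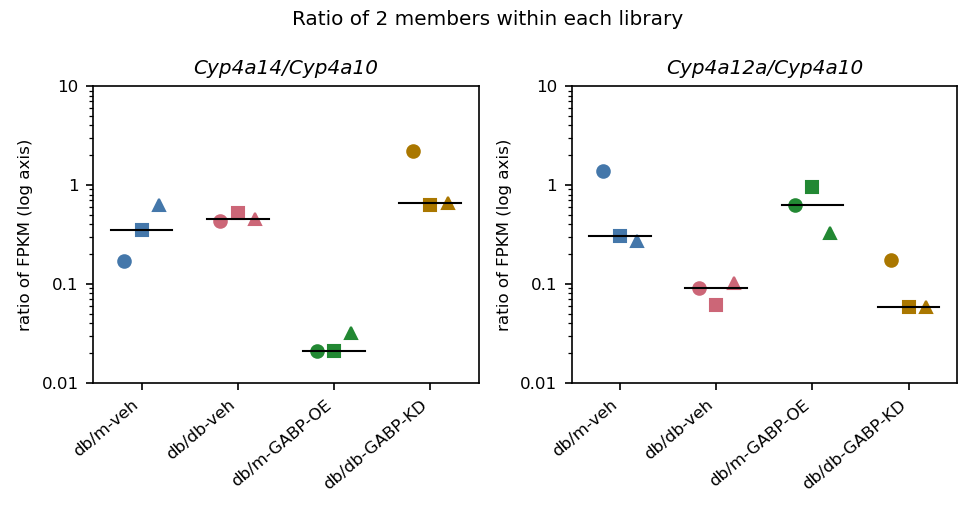
Ratio of the FPKM of Cyp4a14 to Cyp4a10 and of Cyp4a12a to Cyp4a10 within each library (log axis), by group, with a line at the group median and marker shapes for libraries 1, 2 and 3. Cyp4a14 to Cyp4a10 is at most 0.0317 in the 3 GABP-OE libraries and at least 0.172 in the other 9.

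Cyp4a12a had the largest fold change of the members in db/db-veh. It was at 117.5, 7.70 and 38.6 FPKM in db/m-veh and at 2.25, 0.804 and 11.72 FPKM in db/db-veh, where the highest library, db/db-veh 3, overlapped the lowest of db/m-veh. It was at 29.6, 52.1 and 36.5 FPKM in GABP-OE and at 36.1, 2.74 and 2.88 FPKM in the group labelled GABP-KD, where the 1 high value was db/db-GABP-KD 1. The log2 fold change for db/db-veh was -3.25 (SE 0.98, limma adjusted p = 0.245) as deposited and -2.97 (SE 0.90, adjusted p = 0.222) after scaling. Without db/db-veh 3 the values were -4.15 (adjusted p = 0.198) and -3.84 (adjusted p = 0.106). For the group labelled GABP-KD the log2 fold change was 1.06 as deposited and 0.55 after scaling, and -0.09 and -0.31 without db/db-GABP-KD 1. The ratio of Cyp4a12a to Cyp4a10 was 1.37, 0.304 and 0.272 in db/m-veh and 0.0913, 0.0608 and 0.101 in db/db-veh, with no overlap and an exact permutation p = 0.1. Cyp4b1 was at 141.5, 25.2 and 81.7 FPKM in db/m-veh, 31.5, 18.2 and 35.1 FPKM in db/db-veh, 123.2, 122.7 and 114.4 FPKM in GABP-OE and 111.5, 19.4 and 17.1 FPKM in GABP-KD. Its log2 fold change for db/db-veh was -1.27 (SE 0.67, limma adjusted p = 0.488) as deposited and -0.89 (adjusted p = 0.522) after scaling.

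Cyp4a12a and Cyp4b1 are known to be raised by androgen in mouse kidney, and a list of 9 other androgen-regulated kidney genes was set beside them. In db/db-veh 5 of the 9 passed the limma test as lower on both scales. They were Slc22a7, Kap, Akr1c18, Cyp7b1 and Hsd3b4. Kap alone was at 3361 to 15300 scaled FPKM for db/m-veh, 658.0 to 1038 for db/db-veh, 11670 to 23260 for GABP-OE and 133.2 to 211.4 for the group labelled GABP-KD. The summed scaled FPKM of the other 8 was 42.3 to 93.8, 14.2 to 28.9, 103.5 to 174.3 and 13.8 to 25.6 in that order. Among these 8, the scaled values of Timd2 and Slc7a12 overlapped between db/m-veh and db/db-veh. In GABP-OE 3 of the 9 passed as higher as deposited and 0 after scaling, where the members' counts were 0 of 33. The sum of the 8 in db/db-GABP-KD 1, where Cyp4a12a and Cyp4b1 were high, was 13.8, below the 23.0 and 25.6 of the other 2 libraries. The part of androgen-regulated genes in the Cyp4a12a and Cyp4b1 values was not tested. The summed scaled FPKM of 4 Y-linked genes was 15.85 to 16.01 for db/m-veh and 16.83 to 25.72 for db/db-veh. It was 11.08 to 19.34 for GABP-OE and 13.06 to 21.91 for the group labelled GABP-KD, and none of these genes was at 0 in any library. As tissues were mixed, such sums do not give the sex of each mouse.

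Acot1 and Acot2 make a cytosolic and a mitochondrial thioesterase that free fatty acids from coenzyme A. They are near-identical neighbours on chromosome 12, so the split of reads between them is uncertain. Acot1 was at 2.51, 8.46 and 11.1 FPKM in db/m-veh and at 1.87, 1.24 and 2.495 FPKM in GABP-OE. The highest GABP-OE value, 2.495, lay just under the lowest db/m-veh value, 2.511. Acot1 had a log2 fold change of -1.56 (SE 0.72, limma adjusted p = 0.318) as deposited and -1.90 (SE 0.62, adjusted p = 0.339) after scaling. In db/db-veh Acot1 was at 3.24, 1.79 and 9.63 FPKM, and in the group labelled GABP-KD at 35.3, 3.81 and 4.25 FPKM. The log2 fold change for GABP-KD was 1.03 as deposited and 0.47 after scaling, and 0.03 and -0.22 without db/db-GABP-KD 1.

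Acot2 was at 8.42, 6.22 and 12.8 FPKM in db/m-veh, 3.56, 1.06 and 11.2 FPKM in db/db-veh, 4.64, 4.74 and 6.52 FPKM in GABP-OE and 37.4, 6.10 and 3.82 FPKM in the group labelled GABP-KD. As for Acot1, db/db-GABP-KD 1 and db/db-veh 3 held the highest value of their groups. The log2 fold changes of Acot2 as deposited were -1.14 for db/db-veh (SE 0.71, limma adjusted p = 0.570) and 1.29 for GABP-KD (SE 0.71, adjusted p = 0.363). After scaling they were -0.84 and 0.76. As deposited, the GABP-KD value was 0.35 (adjusted p = 0.894) without db/db-GABP-KD 1 and 2.03 (adjusted p = 0.364) without db/db-veh 3, and the db/db-veh value was -1.88 (adjusted p = 0.362) without db/db-veh 3.

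Of the peroxisomal members, Ehhadh makes the bifunctional enzyme, Acaa1b a thiolase, Hsd17b4 the second bifunctional enzyme, and Pex11a a protein of peroxisome division. Ehhadh was at 15.2, 39.1 and 46.6 FPKM in db/m-veh, 20.7, 9.14 and 34.8 FPKM in db/db-veh, 19.7, 21.2 and 29.3 FPKM in GABP-OE and 121.4, 17.1 and 18.4 FPKM in the group labelled GABP-KD. Only db/db-GABP-KD 1 lay outside the range of db/m-veh on the high side. The log2 fold changes were -0.67 for db/db-veh (SE 0.67, limma adjusted p = 0.755) and 0.83 for GABP-KD (SE 0.67, adjusted p = 0.478), and the latter was -0.08 without db/db-GABP-KD 1. After scaling they were -0.30 and 0.23, and the latter was -0.37 without db/db-GABP-KD 1. Without db/db-veh 3 the db/db-veh value was -1.11 as deposited and -0.68 after scaling.

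Acaa1b was at 39.0, 38.1 and 58.8 FPKM in db/m-veh and at 36.1, 33.5 and 19.3 FPKM in GABP-OE, which did not overlap. Its log2 fold change for GABP-OE was -0.62 (SE 0.53, limma adjusted p = 0.565) as deposited and -1.06 (SE 0.35, adjusted p = 0.344) after scaling. It was at 57.2, 15.3 and 35.4 FPKM in db/db-veh and at 103.0, 32.4 and 40.9 FPKM in the group labelled GABP-KD. Acaa1b has a close copy in Acaa1a, so its level is uncertain. For Hsd17b4 and Pex11a the log2 fold changes as deposited were between -0.28 and 0.74 in the 3 comparisons, and between -0.55 and 0.15 after scaling.

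The carnitine shuttle consists of Cpt1a on the outer mitochondrial membrane, the carrier Slc25a20 and Cpt2 on the inner membrane. Cpt2 was at 13.0, 16.9 and 26.5 FPKM in db/m-veh, 9.68, 6.24 and 14.5 FPKM in db/db-veh, 16.7, 25.0 and 22.01 FPKM in GABP-OE and 22.1, 11.0 and 12.2 FPKM in the group labelled GABP-KD. The db/db-veh group was mostly below db/m-veh, and db/db-veh 3 overlapped it. Its log2 fold change as deposited was -0.87 for db/db-veh (SE 0.43, limma adjusted p = 0.446), 0.21 for GABP-OE (SE 0.43, adjusted p = 0.792) and 0.56 for GABP-KD (SE 0.43, adjusted p = 0.459). After scaling the 3 were -0.51, -0.22 and -0.02. Without db/db-GABP-KD 1 the GABP-KD value as deposited was 0.26.

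Cpt1a, the step that limits entry of long chains, was at 11.8, 4.71 and 9.75 FPKM in db/m-veh, 10.2, 4.87 and 15.9 FPKM in db/db-veh, 7.96, 10.1 and 9.64 FPKM in GABP-OE and 35.4, 6.14 and 7.43 FPKM in the group labelled GABP-KD. As deposited db/db-GABP-KD 1 again stood above all other libraries, while after scaling it was at 20.7 and db/db-veh 3 at 19.8. Slc25a20 ranged from 1.82 to 9.78 FPKM over the 12 libraries as deposited, with its highest value in db/db-GABP-KD 1. After scaling its highest value was 7.47 in db/db-veh 3, and db/db-GABP-KD 1 was at 5.70.

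The promoters of Cpt2, Slc25a20 and Pex11a held letters of the site that GABP and other ETS factors bind, and they are shown because GABP was the factor altered. RefSeq promoter windows of GRCm38.p6, 250 bases before to 50 after a start, matched 26 of the 33 members. The letters CCGGAAG, on either strand, occurred in 3 of the 26, Cpt2, Slc25a20 and Pex11a, and in 9.93% of all 27025 genes with a window. The longer CCGGAAGTG, which contains the former, occurred in Cpt2 and Pex11a, 2 of the 26, and in 2.25% of all genes. Each promoter is printed in the gene's own direction and ends before the RefSeq start, with CCGGAAG or its complement CTTCCGG in capitals. Cpt2 is chr4:107923591-107923719 on the minus strand, Slc25a20 is chr9:108662016-108662087 on the plus strand and Pex11a is chr7:79743133-79743231 on the minus strand.
Cpt2: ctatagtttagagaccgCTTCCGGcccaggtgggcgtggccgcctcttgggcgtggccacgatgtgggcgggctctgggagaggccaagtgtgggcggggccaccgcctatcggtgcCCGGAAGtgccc
Slc25a20: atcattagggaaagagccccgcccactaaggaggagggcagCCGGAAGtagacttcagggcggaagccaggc
Pex11a: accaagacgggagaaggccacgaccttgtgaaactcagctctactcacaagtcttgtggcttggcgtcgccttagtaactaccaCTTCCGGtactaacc
In Cpt2 the letters began 113 and 13 bases before the RefSeq start, in Slc25a20 79 bases and in Pex11a 16 bases before it. The 3 genes' log2 fold changes as deposited were 0.16 to 0.21 for GABP-OE and 0.55 to 0.68 for the group labelled GABP-KD, and none passed the test. After scaling they were -0.23 to -0.22 and -0.02 to 0.13. A match of letters is no evidence of binding, and binding was not measured.

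The mitochondrial dehydrogenases act in order of chain length, with Acadvl for very long, Acadl for long, Acadm for medium and Acads for short chains. Acadl was the highest of the 7 genes of mitochondrial beta-oxidation by median FPKM, at 47.4. It was at 46.2, 48.7 and 53.7 FPKM in db/m-veh and at 25.9, 14.5 and 36.4 FPKM in db/db-veh, which did not overlap as deposited or after scaling. Acadl had a log2 fold change for db/db-veh of -1.03 (SE 0.53, limma adjusted p = 0.477) as deposited and -0.66 (SE 0.36, adjusted p = 0.499) after scaling. Acadl was at 49.5, 68.2 and 98.5 FPKM in GABP-OE (limma log2 fold change 0.48, SE 0.53, adjusted p = 0.646) and at 94.1, 20.1 and 25.5 FPKM in the group labelled GABP-KD. After scaling the GABP-OE value was 0.05.

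Acads was at 23.1, 20.0 and 16.6 FPKM in db/m-veh and at 12.7, 6.23 and 13.1 FPKM in db/db-veh. These did not overlap as deposited, but did after scaling, and the log2 fold change of -0.92 had limma adjusted p = 0.452. Acadvl was at 3.79, 7.98 and 7.38 FPKM in db/m-veh, 7.52, 2.75 and 6.30 FPKM in db/db-veh, 5.69, 4.26 and 3.81 FPKM in GABP-OE and 17.9, 5.60 and 7.995 FPKM in the group labelled GABP-KD. Its log2 fold change for GABP-KD was 0.81 (SE 0.46, limma adjusted p = 0.369), and 0.36 without db/db-GABP-KD 1. After scaling these were 0.25 and 0.09. Acadm was at 26.7, 52.1 and 38.5 FPKM in db/m-veh and at 48.2, 22.3 and 28.2 FPKM in GABP-KD. It was a member for which db/db-GABP-KD 1 did not stand out after scaling, with 1.01 times the mean of the other 2 libraries.

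Hadh, Hadha and Hadhb make the enzymes of the later steps, the last 2 being subunits of the trifunctional protein. Hadha and Hadhb lie head to head on chromosome 5, with 85 bases between their outermost GENCODE starts. Those bases, chr5:30155163-30155247 of GRCm38 read on the plus strand towards Hadhb, are shown because both genes share them.
Hadhb: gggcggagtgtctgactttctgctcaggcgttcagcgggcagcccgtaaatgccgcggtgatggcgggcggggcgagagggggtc
Hadha was at 3.63, 3.51 and 5.48 FPKM in db/m-veh, 4.24, 2.53 and 5.44 FPKM in db/db-veh, 3.399, 3.46 and 3.96 FPKM in GABP-OE and 13.1, 3.84 and 4.02 FPKM in the group labelled GABP-KD. Hadhb was at 2.02, 6.72 and 5.89 FPKM in db/m-veh, 5.41, 3.19 and 4.50 FPKM in db/db-veh, 3.59, 3.63 and 5.56 FPKM in GABP-OE and 10.3, 4.24 and 4.77 FPKM in GABP-KD. For both genes db/db-GABP-KD 1 was the highest of the 12 libraries as deposited. The ratio of Hadha to Hadhb overlapped between groups in all 3 comparisons, and its group means on the log scale differed by at most 1.11-fold. Between libraries it varied more, as in db/m-veh, where it was 1.80, 0.523 and 0.930. The log2 fold changes of Hadha, Hadhb and Hadh as deposited were between -0.35 and 0.55 in the 3 comparisons, with the lowest limma adjusted p at 0.465. After scaling they were between -0.56 and 0.31.

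The electron transfer members pass electrons from the dehydrogenases to the respiratory chain, through the flavoprotein subunits Etfa and Etfb and the oxidoreductase Etfdh. Etfb was at 2.44, 0.756 and 3.31 FPKM in db/m-veh, 2.03, 0.557 and 2.01 FPKM in db/db-veh, 2.57, 2.92 and 0.5001 FPKM in GABP-OE and 1.93, 2.30 and 6.11 FPKM in the group labelled GABP-KD. It was the member at least 2-fold lower in db/db-GABP-KD 1, and the groups overlapped in all 3 comparisons. Its log2 fold change was -0.36 for db/db-veh (SE 0.54, limma adjusted p = 0.860) and 0.92 for GABP-KD (SE 0.54, adjusted p = 0.378), and the latter was 1.19 (adjusted p = 0.526) without db/db-GABP-KD 1. The scaled values of these were -0.09, 0.51 and 1.02.

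Etfdh was at 1.65, 5.08 and 4.69 FPKM in db/m-veh, 4.32, 2.72 and 4.22 FPKM in db/db-veh, 2.33, 2.64 and 3.57 FPKM in GABP-OE and 15.7, 3.04 and 3.52 FPKM in the group labelled GABP-KD. The GABP-OE libraries lay inside the range of db/m-veh, with a log2 fold change of -0.26 (SE 0.51, limma adjusted p = 0.787) as deposited and -0.63 (adjusted p = 0.903) after scaling. Etfa ranged from 10.4 to 41.2 FPKM over the 12 libraries, and its log2 fold changes as deposited were between -0.07 and 0.37, and between -0.41 and 0.30 after scaling.

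Eci1 and Decr1 make the isomerase and the reductase that let unsaturated fatty acids enter beta-oxidation. Eci1 was at 11.5, 19.7 and 39.3 FPKM in db/m-veh, 13.4, 7.38 and 19.3 FPKM in db/db-veh, 9.37, 14.6 and 17.5 FPKM in GABP-OE and 41.9, 13.9 and 16.2 FPKM in the group labelled GABP-KD. All groups overlapped. The log2 fold changes as deposited were -0.72 in db/db-veh, -0.61 in GABP-OE and 0.74 in GABP-KD, each with SE 0.53 and with limma adjusted p = 0.645, 0.570 and 0.432. On the scaled values they were -0.35, -1.03 and 0.16. Without db/db-GABP-KD 1 the GABP-KD value was 0.26 as deposited and -0.03 after scaling, and without db/db-veh 3 the db/db-veh value was -1.02 and -0.59. Decr1 ranged from 6.29 to 23.3 FPKM, with log2 fold changes between -0.59 and 0.60 as deposited and between -0.35 and 0.01 after scaling.

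The remaining 7 members take up, bind, activate or store fatty acids, or act outside the oxidation pathway. Pdk4 makes a kinase that inhibits pyruvate dehydrogenase, which limits the oxidation of glucose carbon, and is a known fasting gene. It was at 1.81, 1.25 and 3.05 FPKM in db/m-veh, 1.39, 1.203 and 2.12 FPKM in GABP-OE, 2.18, 1.33 and 21.9 FPKM in db/db-veh and 445.3, 2.42 and 2.07 FPKM in the group labelled GABP-KD. Of the 12 libraries, 10 were between 1.203 and 3.05 FPKM, db/db-veh 3 was at 21.9 and db/db-GABP-KD 1 at 445.3, from 13207 fragments. In scaled values db/db-GABP-KD 1 had 104.4 times the mean of the other 2 libraries of its group. For the group labelled GABP-KD the log2 fold change was 1.64 (SE 1.36, limma adjusted p = 0.485), and without db/db-GABP-KD 1 it was -0.81 (adjusted p = 0.762), while without db/db-veh 3 it was 2.75 (adjusted p = 0.385). After scaling these were 1.09, -1.06 and 2.17. For db/db-veh Pdk4 had a log2 fold change of 0.98 as deposited and -0.13 without db/db-veh 3, and 1.31 and 0.23 after scaling.

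Plin2, which coats lipid droplets, was highest in the same 2 libraries. It was at 4.70, 6.73 and 13.9 FPKM in db/m-veh, 4.98, 6.16 and 8.85 FPKM in GABP-OE, 3.401, 2.73 and 24.6 FPKM in db/db-veh and 472.7, 5.21 and 4.58 FPKM in the group labelled GABP-KD. The value in db/db-GABP-KD 1 came from 14023 fragments and was 50.8 times the mean of the other 2 after scaling. For the group labelled GABP-KD the log2 fold change was 1.81 (SE 1.22, limma adjusted p = 0.418), and without that library it was -0.34 (adjusted p = 0.909), while without db/db-veh 3 it was 2.75 (adjusted p = 0.380). After scaling these were 1.24, -0.61 and 2.13. For db/db-veh Plin2 had a log2 fold change of -0.26 as deposited and -1.20 without db/db-veh 3, and 0.09 and -0.80 after scaling. Pdk4 is described in full after its values were seen.

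The promoters of Pdk4 and Plin2 are shown because these genes differed most in a single library. Neither window held the letters searched, which says only that the letters are absent there. Pdk4 is chr6:5496310-5496468 and Plin2 is chr4:86670061-86670209 of GRCm38.p6, both on the minus strand.
Pdk4: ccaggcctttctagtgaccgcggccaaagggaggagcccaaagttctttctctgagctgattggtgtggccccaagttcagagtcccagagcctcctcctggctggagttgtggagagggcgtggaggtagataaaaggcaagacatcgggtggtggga
Plin2: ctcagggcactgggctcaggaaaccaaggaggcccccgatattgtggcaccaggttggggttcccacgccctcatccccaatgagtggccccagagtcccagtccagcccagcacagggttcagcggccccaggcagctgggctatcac

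**Figure D4:**
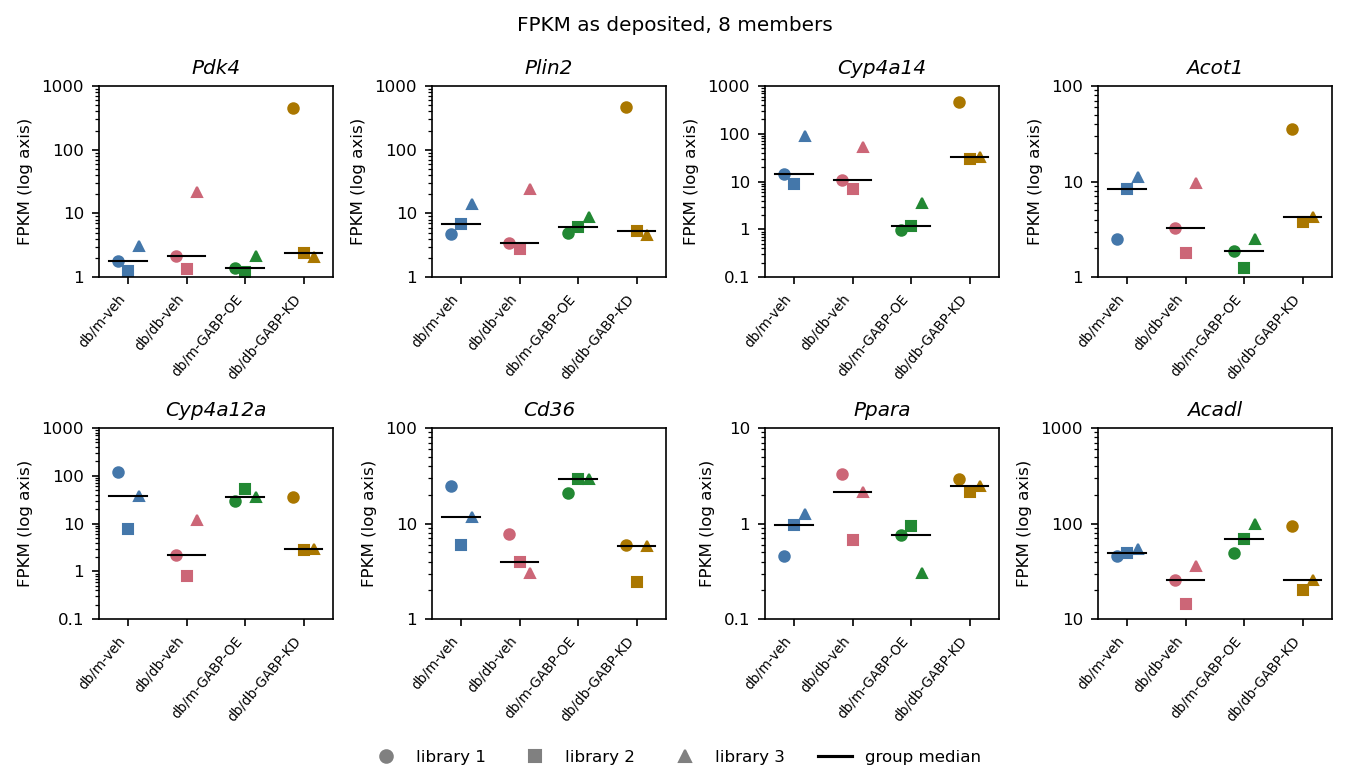
FPKM as deposited (log axis) of 8 members in the 4 groups, with marker shapes for libraries 1, 2 and 3 and a line at the group median. For Pdk4 and Plin2, db/db-GABP-KD 1 lies above 400 FPKM and db/db-veh 3 is the next highest. For Cyp4a14 the 3 GABP-OE libraries lie at 0.979 to 3.58 FPKM, below all others.

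Cd36, a fatty acid translocase that endothelial cells and macrophages also make, did not share the pattern of Pdk4 and Plin2 and was below the mean of the other 2 libraries in db/db-GABP-KD 1 and db/db-veh 3, at 0.778 and 0.476 times after scaling. It was at 24.6, 6.01 and 11.72 FPKM in db/m-veh, 7.804, 3.94 and 3.05 FPKM in db/db-veh, 20.9, 29.1 and 29.5 FPKM in GABP-OE and 6.04, 2.43 and 5.78 FPKM in the group labelled GABP-KD. All 3 GABP-OE libraries were above every db/db library, while db/m-veh spanned both. The log2 fold change as deposited was -1.31 for db/db-veh (SE 0.50, limma adjusted p = 0.317), 1.08 for GABP-OE (SE 0.50, adjusted p = 0.314) and -0.04 for GABP-KD. After scaling these were -0.96, 0.66 and -0.59. The summed scaled FPKM of 8 endothelial genes was 93.9 to 107.5 for db/m-veh, 68.0 to 89.7 for db/db-veh, 114.4 to 164.9 in GABP-OE and 73.2 to 106.6 in GABP-KD. The same sum of 8 macrophage genes was 28.3 to 42.8, 26.6 to 29.9, 104.2 to 180.2 and 27.8 to 97.3 in that order. The sum of 8 adipocyte genes was 0.448 to 1.88, 1.70 to 21.3, 6.25 to 17.4 and 0.558 to 1.67, and in GABP-OE 2 of the 5 tested, Cfd and Ucp1, passed as higher as deposited and 0 after scaling. Their part in the Cd36 values was not tested.

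Acsl1 makes an enzyme that activates long-chain fatty acids. It was at 4.76, 4.16 and 8.85 FPKM in db/m-veh and at 3.75, 3.88 and 3.75 FPKM in GABP-OE, which did not overlap, with a log2 fold change of -0.51 (SE 0.74, limma adjusted p = 0.719) as deposited and -0.89 (adjusted p = 0.932) after scaling. In db/db-veh it was at 4.47, 1.87 and 13.7 FPKM and in the group labelled GABP-KD at 48.6, 4.32 and 4.48 FPKM. Angptl4, a secreted inhibitor of lipoprotein lipase, was at 9.48, 3.44 and 7.74 FPKM in db/m-veh, 8.83, 4.21 and 25.3 FPKM in db/db-veh, 11.2, 7.65 and 13.1 FPKM in GABP-OE and 74.1, 15.5 and 11.2 FPKM in GABP-KD. Both genes had their highest db/db values in db/db-veh 3 and db/db-GABP-KD 1. Vnn1, a pantetheinase, ranged from 5.95 to 25.3 FPKM, and db/db-GABP-KD 1 did not stand out for it after scaling, at 0.824 times the mean of the other 2.

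Fabp1, a fatty acid binding protein typical of liver, was the lowest member. It was at 0 in 5 libraries, 0.211 to 0.581 FPKM in 6, from 1 to 3 fragments each, and at 4.71 FPKM in db/db-GABP-KD 1, from 22 fragments. Fabp1 had a log2 fold change of 1.32 for the group labelled GABP-KD (SE 0.54, limma adjusted p = 0.344) and 0.44 (adjusted p = 0.749) without that library, 1.08 and 0.45 after scaling, and at such counts smaller differences were not detectable. Fabp1 was the member with a match to DR1, the direct repeat of AGGNCA with 1 base between that PPAR and RXR bind, on the minus strand 67 bases before the RefSeq start. That motif occurred in 1 of 26 members and in 0.451% of all genes with a window. The stretch is chr6:71199754-71199829 of GRCm38.p6 on the plus strand, with the match in capitals.
Fabp1: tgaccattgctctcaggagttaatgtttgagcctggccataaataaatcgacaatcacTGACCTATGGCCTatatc

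In scaled values 11 of the 33 members were at least 2-fold higher in both db/db-GABP-KD 1 and db/db-veh 3 than in the rest of their groups. Of all genes 7.71% were so in db/db-GABP-KD 1 and 5.25% in db/db-veh 3. The share of all genes that were so in both was not computed, so whether this overlap is particular to the members is not known. The 11 members were Pdk4, Plin2, Cyp4a14, Cyp4a12a, Cyp4a10, Acsl1, Acot1, Acot2, Ehhadh, Angptl4 and Fabp1. After scaling, the ratio of db/db-GABP-KD 1 to the mean of its other 2 libraries was 7.68 for Cyp4a14, 6.76 for Cyp4a12a, 5.82 for Acsl1, 4.62 for Acot1, 3.96 for Acot2 and 3.61 for Ehhadh. For db/db-veh 3 the same ratio was 11.1 for Pdk4, 7.36 for Cyp4a12a, 6.90 for Plin2, 5.56 for Cyp4a10, 5.34 for Cyp4a14, 4.75 for Acot2 and 4.06 for Acsl1. By contrast, Ppara was at 0.671 and 1.09 times the mean of the other 2 in these libraries. The 7 genes of mitochondrial beta-oxidation were at 1.01 to 2.18 times in db/db-GABP-KD 1 and at 0.941 to 1.80 times in db/db-veh 3.

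Markers of other cells were set beside these 2 libraries. The summed scaled FPKM of the 15 proximal tubule genes without Kap was 1295 in db/db-GABP-KD 1 and 1256 and 1268 in the other 2. It was 4041 in db/db-veh 3 against 1613 and 1130, where Pck1, which encodes an enzyme of glucose synthesis that fasting raises, gave 2485 of the sum. In db/db-GABP-KD 1 the near-equal sum covered genes that moved in opposite directions. Pck1 at 696.4, Slc27a2 at 173.6 and Acsm2 at 31.9 were the highest of the group there. Most of the 15 were the lowest, among them Slc34a1 at 116.5, Lrp2 at 5.06, Cubn at 2.32, Gatm at 11.0 and Miox at 174.1. None of 16 proximal tubule genes was at 0 in any library. The sum of 8 adipocyte genes was 1.65 in db/db-GABP-KD 1 against 1.67 and 0.558, with Lep and Cfd at 0 there, and 3.29 in db/db-veh 3 against 21.3 and 1.70, with Lep and Ucp1 at 0. The sum of 14 clock-controlled genes was 144.8 in db/db-GABP-KD 1 against 43.6 and 46.0, and 88.5 in db/db-veh 3 against 95.6 and 76.0. In db/db-GABP-KD 1 Per1 at 52.1, Nr1d1 at 25.6 and Nr1d2 at 21.8 gave most of the sum. Most of the 14 were the highest of the group there, but others were the lowest, such as Tef at 7.48, Hlf at 1.19 and Per3 at 0.460. The clock sum also differed between groups, at 25.7 to 52.7 in db/m-veh and 54.1 to 66.7 in GABP-OE, where none of the 14 genes passed the limma test. Their part in the members' values was not tested. Per the labels the mice were housed with food, and neither feeding state nor hour at tissue collection is stated.

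Of 82 other genes of fatty acid oxidation, ketone body synthesis and PPAR signalling, all were measured and 76 passed the filter. In db/db-veh 21 were above 0 and 55 below as deposited, with a median of -0.36, and 36 and 40 after scaling. In GABP-OE 64 were above and 12 below as deposited, with a median of 0.37, and 36 and 40 after scaling. In GABP-KD 60 were above and 16 below as deposited, and 27 and 49 after scaling. With limma, 1 of the 76 passed for GABP-OE as deposited and 0 passed for db/db-veh, GABP-KD and the difference, where 6, 4 and 9 had an unadjusted p under 0.05, and voom called 0 in each.

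The gene that passed was Acsm3, which makes a medium-chain acyl-CoA synthetase. It was at 4.70, 1.13 and 0.933 FPKM in db/m-veh and at 6.28, 8.21 and 8.42 FPKM in GABP-OE, with no overlap. For GABP-OE the log2 fold change was 1.81 (SE 0.40, limma adjusted p = 0.0266), and 1.41 (adjusted p = 0.203) after scaling, where it no longer passed. As deposited, Acsm3 also no longer passed when library 2 or 3 of db/m-veh, or library 2 or 3 of GABP-OE, was left out. In the db/db groups Acsm3 was at 0.717, 0.289 and 0.528 FPKM in db/db-veh and 0.144, 0.0472 and 0.144 FPKM in the group labelled GABP-KD.

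Among the genes of this list with large fold changes as deposited were, for db/db-veh, Lpl, which frees fatty acids from lipoproteins, at -2.13 (SE 0.63, limma adjusted p = 0.245), Cyp4a12b at -1.97 and Acsm2 at -1.46, and after scaling -1.79, -1.78 and -1.08. In GABP-KD there were Abcd3, a peroxisomal fatty acid transporter, at 1.13, Acsl4 at 1.02 and Cyp4a12b at 1.02, with the lowest adjusted p of these at 0.344, and after scaling 0.56, 0.47 and 0.60. In the difference there were Cyp4a12b at -2.68, Acsm3 at 2.52 and Bdh1 at 1.92, with the lowest adjusted p of these at 0.137, and after scaling -2.57, 2.37 and 1.96. Lpl was at 82.8, 11.6 and 9.53 FPKM in db/m-veh, 5.52, 3.08 and 5.05 FPKM in db/db-veh, 44.0, 85.8 and 73.6 FPKM in GABP-OE and 7.03, 2.99 and 3.16 FPKM in the group labelled GABP-KD. For Lpl, all 3 db/db-veh libraries were below all of db/m-veh, and db/m-veh 1 lay among the GABP-OE libraries. For GABP-OE there were, beside Acsm3, Cyp4a12b at -1.67 and Lpl at 1.61, with adjusted p = 0.286 and 0.230, and -1.97 and 1.17 after scaling. The adipocyte and macrophage sums given beside Cd36 were also higher in GABP-OE than in db/m-veh, and their part in the Lpl values was not tested.

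Pnpla2, which makes the triglyceride lipase ATGL and was chosen after its values were seen, was also highest in db/db-GABP-KD 1. It was at 177.5 FPKM there, at 48.4 FPKM in db/db-veh 3 and at 5.97 to 24.1 FPKM in the other 10.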

How the data were processed

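Poly(A) RNA of mouse kidney was measured in 12 libraries of 4 groups. The authors deposited FPKM, 1 value per gene and library, in 1 table of 21899 genes. HTSeq and GRCm39 are named per the submitters' processing notes, without versions or roles; the aligner, annotation and strand setting were not stated. Gene symbols matched 21795 genes. Exon lengths of GENCODE M21 (GRCm38) turned the deposited FPKM into whole fragments (tolerance 0.05 of a fragment) for 98.3% of 21846 genes with a length, so coordinates are given in GRCm38. Totals were 6.78 to 9.70 M fragments per library (M, 1e6). No library was a copy of another: between replicates, chi-square over its degrees of freedom was 6.91 to 56.5.

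Tests used limma 3.58.1 (R version 4.3.3) with log2(FPKM + 0.5), a scale that understates changes of low genes, all 12 libraries and a variance trend; tests were two-sided, and the Benjamini-Hochberg threshold was 0.05 over the 12897 genes with FPKM of 0.3 or more in 3 libraries or more. It was tested on simulated data. Median of ratios scaling over 5884 genes above FPKM 1 in every library is given beside it. Alternatives were other pseudocounts, filters, scalings, library weights, voom on the recovered fragments, 2-group fits, a replicate block and leaving out each library. Ratios used Python 3.11.15 with scipy 1.17.1 and an exact permutation test. Leaving out libraries on the scaled values, and voom with library sizes scaled by median of ratios, were chosen after seeing the data.

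Members and gene lists were chosen with earlier results of these data known. Given in full were, for each role and comparison, the member with the largest log2 fold change, apart from Slc25a20. Slc25a20 had the largest value of the carnitine shuttle as deposited in the GABP-OE less GABP-KD difference, and is given by range. Of the other pathway genes, the rule was those called or the 4 with the largest change. Others are named after their values were seen (Pdk4, Acsl1, Angptl4, Cyp4a10 and Pnpla2 among them). Some genes of the other pathway list are not reported here by name.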

Additional observations from a re-analysis of the deposited data

How the results depend on the processing

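Across 37 alternative settings the member counts stayed at 0 apart from these. For GABP-OE, leaving out 1 library gave 0 to 1 (Cyp4a14, without db/db-GABP-KD 1, also 1 after scaling), the fit of 2 groups only gave 1 (Cyp4a14) and library weights gave 4 (Cyp4a14, Acot1 and Eci1 lower, Cd36 higher). Library weights gave 1 for db/db-veh (Cyp4a12a) and 1 for the difference (Cyp4a14). The cause was not tested.

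For other pathway genes in GABP-OE the count of 1 became 0 with pseudocount 0.1, no filter, median of ratios, quantile normalization, no variance trend and both voom fits, and 2 with pseudocount 1 or with 2 groups only. With library weights it was 21 of 76, where 21.4% of all genes passed for GABP-OE. Leaving out 1 library gave 0 to 3, and 0 to 2 after scaling, highest without db/m-veh 1. Library weights gave 1 for db/db-veh and 5 for the difference, where 4.98% and 2.92% of all genes passed. For the difference, leaving out 1 library gave 0 to 1 and, after scaling, 2 without db/m-veh 1. Of 4847 gene values under alternatives 683 had the other sign, and none of these was called.

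With the replicate number as a block (replicate block), 0 members passed in each comparison. Same-numbered libraries correlated at -0.48 to 0.38, and 5 of 12 correlated best with their own number, so the numbers were not taken as pairs.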
